A study of Mus musculus with 6 samples.

Results

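The antiviral type I interferon-stimulated genes are a group of 36 genes chosen by name, and 35 of them have a row among the 22609 genes of the count files. The exception is Rnf213, which has no row under that symbol. All 35 passed the filter on low counts, which left 12522 genes to test. Members were matched by gene symbol, and no measured value was used to choose them within these files, though they were proposed with earlier results of the data known.

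RNA was sequenced from adult liver of 3 IGFBP7 knock-out mouse samples and 3 wild type samples. The knockout samples carry the Igfbp-7-/- genotype, made by Cre-loxP recombination, and both groups are on the C57BL/6 strain, with no treatment labelled in either. The sources used here do not give the driver of Cre, the sex, the exact age or the time of collection. They also do not state that samples of 1 genotype are separate animals, so p-values measure the spread between these samples. The series concerns IGFBP7, a secreted binding protein of insulin-like growth factors, in liver cancer, and the tissue here is liver without a labelled tumour.

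Type I interferons bind a receptor made of Ifnar1 and Ifnar2, whose kinases Jak1 and Tyk2 phosphorylate transcription factors that include Stat2. With Irf9 these form a complex that binds a short element in promoters, the interferon-stimulated response element or ISRE, and switches on genes that sense, bind, modify or trap viral material. In liver, hepatocytes and the resident macrophages, called Kupffer cells, both express such genes at a low resting level in the absence of infection.

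The libraries held 16712568 to 22419411 gene counts. Igfbp7 stood at 5, 2 and 9 counts in knockout libraries 1 to 3, against 1438, 1705 and 1055 counts in wild type libraries 1 to 3, as labelled. All 7 hepatocyte markers were present in every library, led by Alb at 65381 to 85469 CPM (counts scaled to the size of the library) in knockout and 61052 to 78720 CPM in wild type livers. The clock genes differed between the genotypes, and wild type library 1 lay farthest from the other libraries. The score of evening-phase minus morning-phase genes was 3.93, 4.98 and 5.07 in knockout libraries, against -0.44, 3.01 and 3.52 in wild type libraries (mean log2 CPM difference). Every knockout score lay above every wild type score, so clock phase and genotype cannot be told apart here. The Kupffer cell and macrophage markers also differed and are given below.

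The promoters of several members are shown first because they carry the element that interferon signalling reads. RefSeq promoter windows of assembly GRCm38.p6, running from 250 bases before to 50 bases after an annotated start, were found for 26 of the 35 members. The ISRE core was searched on both strands as GAAA, any 2 bases and GAAA again. It was present in 11 of these 26 members, or 42.3%, against 3.99% of the 27025 genes with a window. The stretches below are the last 120 bases before the start on the gene's own strand, 5′ to 3′, with ISRE cores in capitals. They show 6 members that hold a core there, then Dtx3l and Trim25, the 2 members whose fold change was not below 0.
Rsad2 (chr12:26456453-26456572, minus strand): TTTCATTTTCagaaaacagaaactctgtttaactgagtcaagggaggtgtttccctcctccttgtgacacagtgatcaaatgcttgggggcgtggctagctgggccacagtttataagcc
Oas3 (chr5:120777660-120777779, minus strand): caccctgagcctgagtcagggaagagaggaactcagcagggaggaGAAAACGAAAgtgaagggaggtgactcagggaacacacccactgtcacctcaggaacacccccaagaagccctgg
Isg15 (chr4:156200819-156200938, minus strand): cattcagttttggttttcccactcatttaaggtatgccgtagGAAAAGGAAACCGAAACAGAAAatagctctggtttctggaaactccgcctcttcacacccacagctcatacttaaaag
Oas1a (chr5:120907526-120907645, minus strand): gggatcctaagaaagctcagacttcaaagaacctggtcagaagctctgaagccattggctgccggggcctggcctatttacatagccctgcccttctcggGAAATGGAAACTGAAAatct
Ifit1 (chr19:34640769-34640888, plus strand): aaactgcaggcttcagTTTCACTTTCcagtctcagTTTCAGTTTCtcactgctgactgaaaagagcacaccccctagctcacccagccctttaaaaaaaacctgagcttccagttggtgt
Oas1g (chr5:120887614-120887733, minus strand): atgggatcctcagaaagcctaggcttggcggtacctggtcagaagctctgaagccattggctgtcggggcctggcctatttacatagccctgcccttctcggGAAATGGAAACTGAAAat
Dtx3l (chr16:35939028-35939147, minus strand): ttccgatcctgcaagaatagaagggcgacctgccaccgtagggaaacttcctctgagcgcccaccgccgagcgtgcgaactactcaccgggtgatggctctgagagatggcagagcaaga
Trim25 (chr11:88999283-88999402, plus strand): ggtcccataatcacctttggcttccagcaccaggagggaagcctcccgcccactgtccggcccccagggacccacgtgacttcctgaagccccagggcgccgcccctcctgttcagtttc

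The cores of Isg15 overlap one another in a run of 3 matches that begins 78 bases before the start, and Ifit1 holds 2 separate cores, at 104 and 85 bases before it. Oas1a and Oas1g, neighbouring genes of 1 cluster, share the same overlapping pair of cores at 20 and 14 and at 18 and 12 bases before the start. In Ddx58, Eif2ak2 and Ifih1 the match lay after the start, and in Bst2 and Ifit3 it began farther upstream than the stretches shown. The 11 members with a core in the window had a median log2 fold change (knockout over wild type) of -0.57, and 8 of them were lower at a raw p below 0.05. In the 15 members with a window but no such match the median was -0.25, and 5 were lower at that level. Over all tested genes 7.35% were lower at that level. Cmpk2, at -0.83, and Ifit2, at -0.77, held no core, while Oas1g, with 2 cores, was at -0.10. Zbp1, Ly6e, Usp18, Dhx58, Parp14, Parp9, Oas2, Mx1 and Mx2 had no window and are in neither count. A link between core and fold change was not tested. The second element, GAS, which is read after interferon-gamma, was searched as TTCNNNGAA, which reads the same on both strands. It was present in 6 of the 26 members, or 23.1%, against 9.55% of all genes with a window. In Bst2 the GAS match overlaps the first ISRE core by a few bases. Members with a GAS match had a median of -0.39 and those without one -0.33. A match is a description of letters in a window and not a test of binding.

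**Figure D1:**
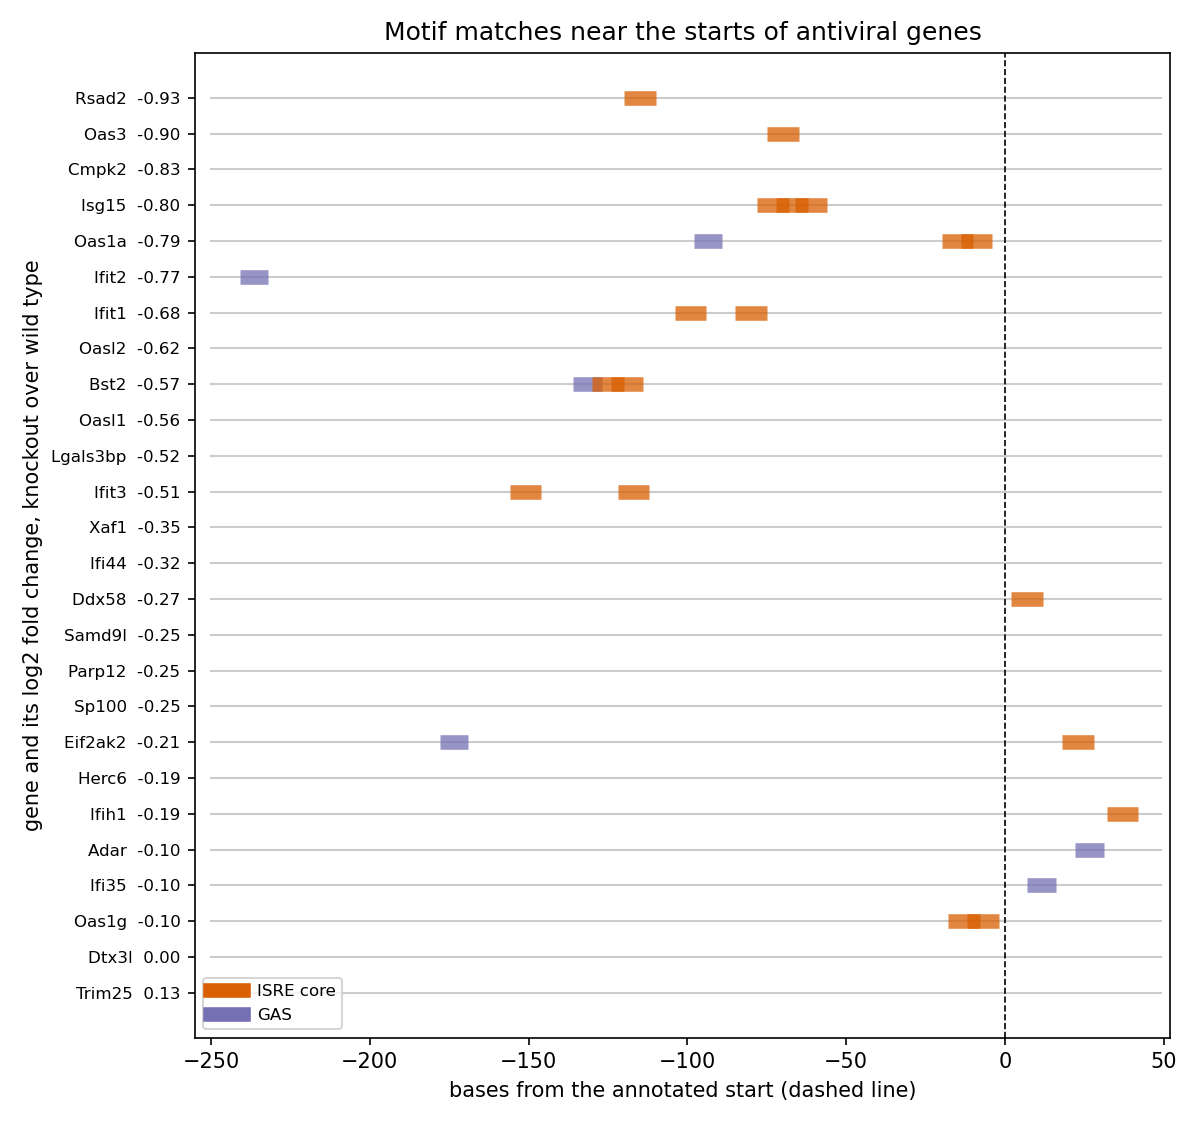
Position of motif matches in the promoter windows of 26 members, in bases from the annotated start, with genes ordered from the lowest to the highest log2 fold change (printed beside each name). Orange bars are ISRE cores and purple bars GAS matches, and the windows of Trim25 and Dtx3l at the bottom hold neither.

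As a group, the antiviral genes lay lower in knockout livers, by a modest amount that no single member carried past the threshold over all genes. The fold change was below 0 in 33 of the 35 members, against 49.7% of all tested genes, and the median log2 fold change was -0.35, against 0.0013 over all tested genes. The 2 exceptions were Trim25, at 0.13, and Dtx3l, at 0.0048, which lay just below 0 under upper-quartile scaling and under total-count scaling. By edgeR's quasi-likelihood test 0 members passed an adjusted p of 0.05, where 0.0878% of all tested genes were called lower and 0.128% higher. At a raw p below 0.05, 18 members were lower and 0 higher, where 7.35% of all tested genes were lower and 8.10% higher. DESeq2 called 12 members lower, against 1.73% of the genes it gave an adjusted p, and limma-voom called 0, against 0.0799%. In 16 members each of the 3 knockout values lay below each of the 3 wild type values, as in 10.1% of all tested genes, and in 0 members did they all lie above. Groups that do not overlap in either direction were found in 20.7% of all tested genes. These shares over all tested genes also stand beside the counts by role below.

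Single libraries move these counts. Without wild type library 3, edgeR called 2 members, Rsad2 and Zbp1, and without knockout library 1 it called Ly6e. Without any other single library it called 0 members. With the clock score as a covariate 8 members, in place of 18, were lower at a raw p below 0.05, as were 3.09% of all tested genes in that fit, in place of 7.35%, and the median was -0.33. Under that covariate Mx1, Oas1g and Trim25 were the members above 0. As the score itself differs between the genotypes, that fit cannot tell clock phase and genotype apart.

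**Figure D2:**
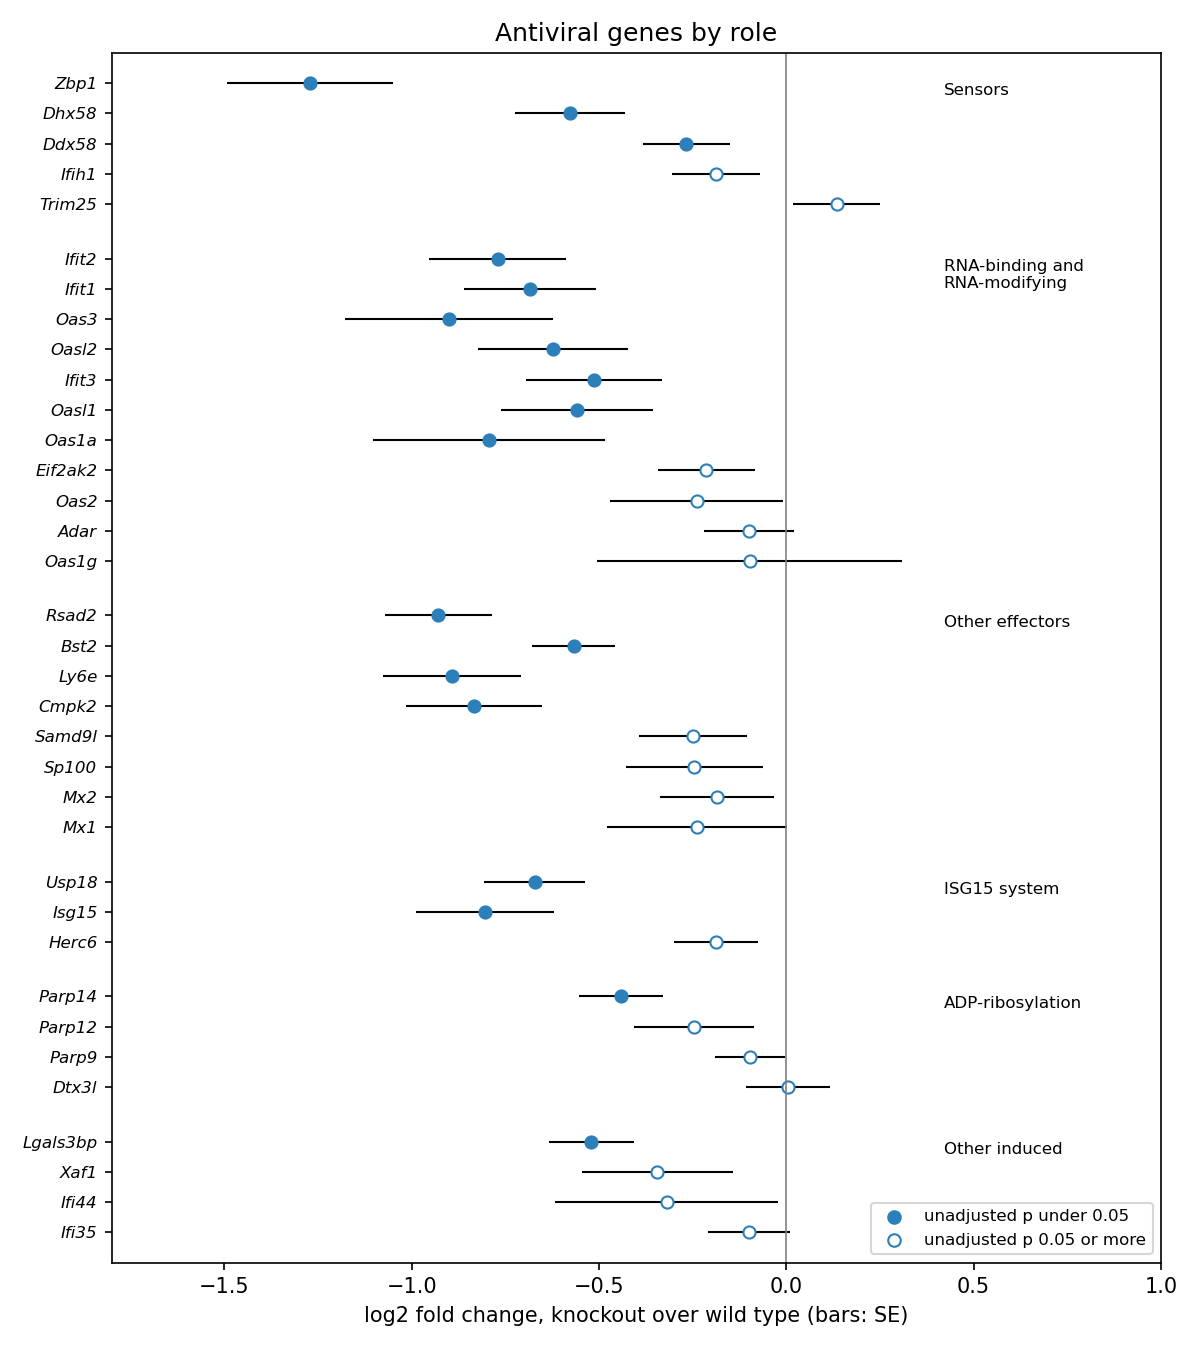
Log2 fold change of the 35 antiviral genes, knockout over wild type, with standard errors, grouped by role and ordered by p within a role. Filled points have a raw p below 0.05 by edgeR (18 genes, all to the left of 0), and no gene has an adjusted p under 0.05.

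The 5 sensors of viral nucleic acid and their helpers spanned the whole range of the group, from its lowest member to its highest. Zbp1, which binds left-handed nucleic acid and can trigger cell death, had 4.31, 3.98 and 4.81 CPM in knockout libraries 1 to 3, against 12.8, 11.6 and 7.21 CPM in wild type libraries 1 to 3. The groups did not overlap, and wild type library 3 was nearest to the knockout livers. Its log2 fold change was -1.27 ± 0.22 (SE; edgeR adjusted p = 0.0637). With 1 library left out it ranged from -1.48, without wild type library 3, to -1.11, without wild type library 1. Dhx58, or LGP2, a helicase that tunes the other cytoplasmic RNA sensors, had 13.0, 14.03 and 10.4 CPM in knockout livers, against 21.2, 17.9 and 16.7 CPM in wild type livers. These groups were apart too, at -0.58 ± 0.15 (SE; edgeR adjusted p = 0.134). Ddx58, which encodes RIG-I, the sensor of short RNA with a triphosphate end, had 33.5, 38.0 and 40.5 CPM in knockout livers, against 48.6, 46.8 and 39.4 CPM in wild type livers. Knockout library 3 lay above wild type library 3, so the groups overlapped, and the log2 fold change was -0.27 ± 0.12 (SE; edgeR adjusted p = 0.321).

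Ifih1, or MDA5, the sensor of long double-stranded RNA, overlapped between the genotypes at 52.2 ± 7.6 CPM in knockout and 59.4 ± 3.8 CPM in wild type livers (SD, n = 3 each). Trim25, the ubiquitin ligase that acts on RIG-I, had 119, 147 and 154 CPM in knockout livers, against 123, 120.1 and 139 CPM in wild type livers. Its log2 fold change of 0.13 ± 0.12 (SE; edgeR adjusted p = 0.635) was the highest of the 35. So within the sensors 4 of 5 were below 0 and 3 of 5 reached a raw p below 0.05.

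**Figure D3:**
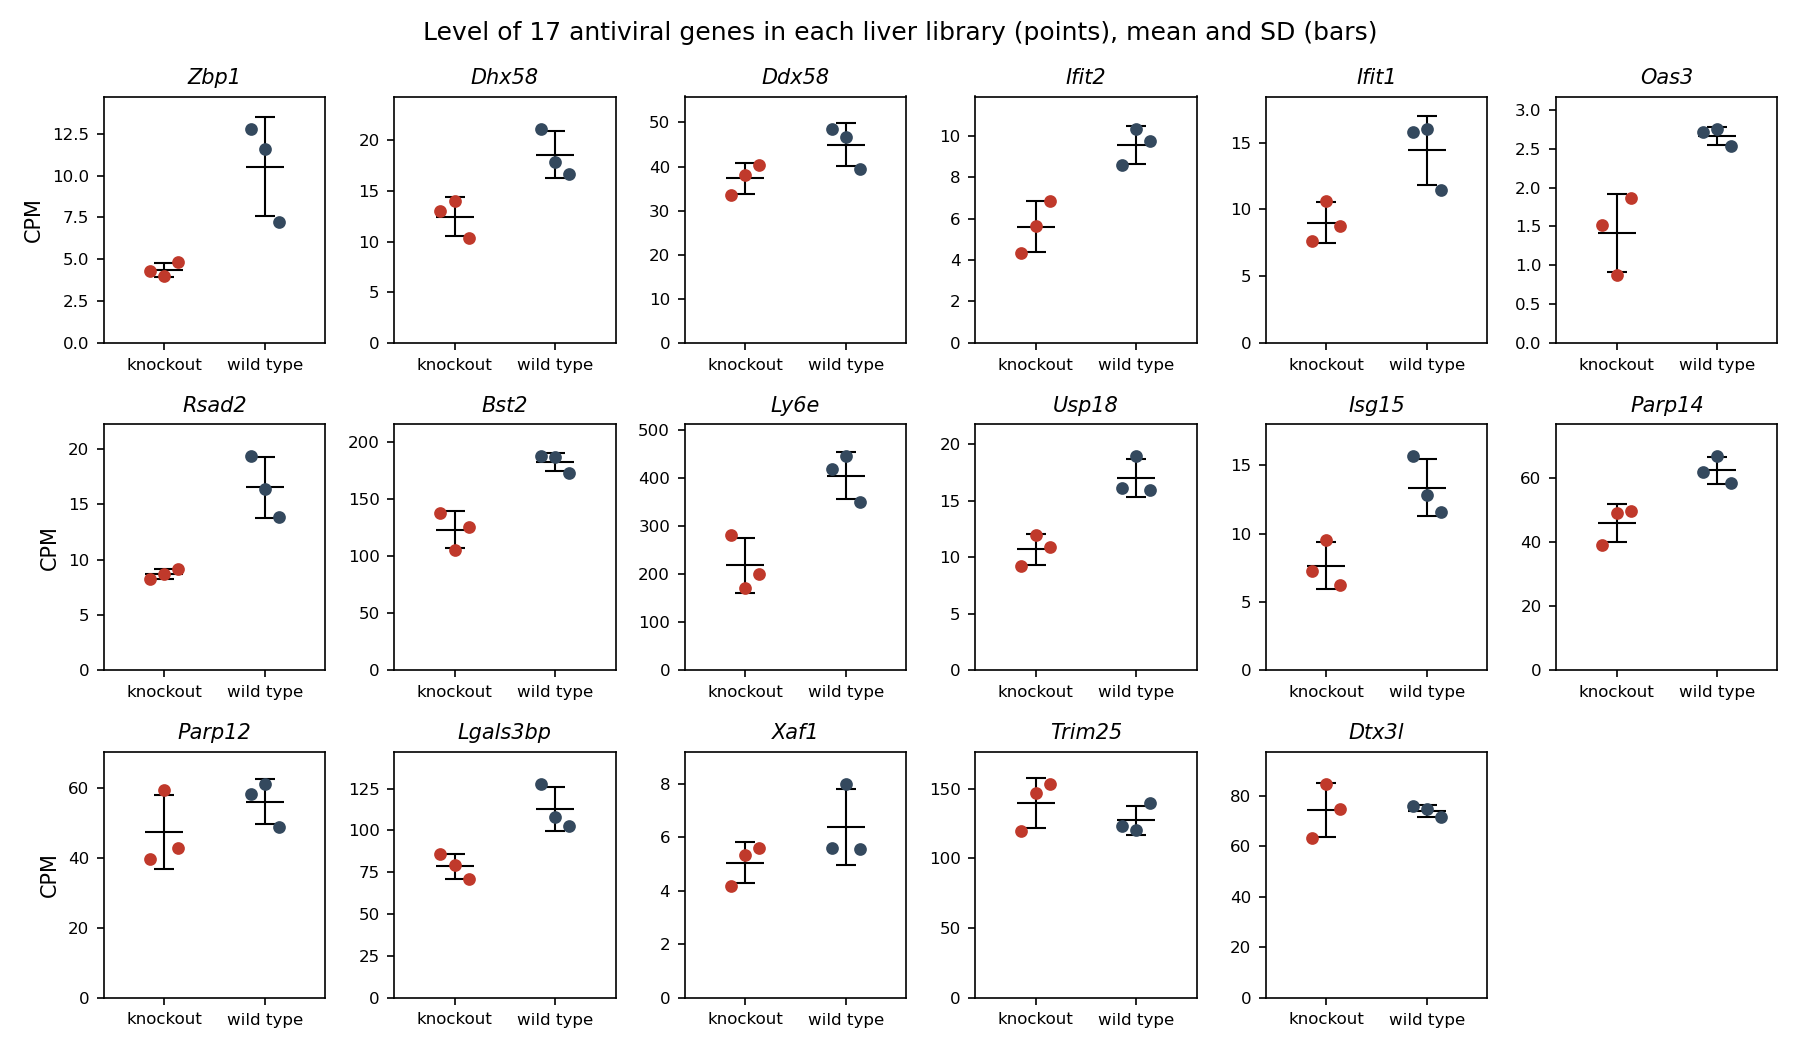
Level in CPM of 17 members in the 3 knockout libraries (red, left) and the 3 wild type libraries (dark blue, right), with the mean and SD as bars. In Zbp1, Rsad2, Ly6e and Bst2 all knockout points lie below all wild type points, while Trim25 and Dtx3l overlap.

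Among the 11 genes that bind or modify RNA, all were below 0, with 7 at a raw p below 0.05 and a median log2 fold change of -0.56. The Ifit proteins bind the ends of foreign RNA and block its translation. Ifit2 had 4.36, 5.62 and 6.82 CPM in knockout livers, against 8.56, 10.3 and 9.75 CPM in wild type livers, with no overlap and a log2 fold change of -0.77 ± 0.18 (SE; edgeR adjusted p = 0.117). Ifit1 had 7.62, 10.6 and 8.74 CPM in knockout livers, against 15.8, 16.0 and 11.4 CPM in wild type livers, again with no overlap, at -0.68 ± 0.18 (SE; edgeR adjusted p = 0.135). Ifit3, whose product binds that of Ifit1, averaged 7.37 ± 1.31 CPM in knockout and 10.5 ± 1.9 CPM in wild type livers (SD, n = 3 each). In the GENCODE M21 transcripts 51.2% of its 50-base words also occur in its copy Ifit3b, so its count of uniquely placed reads is uncertain.

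The Oas enzymes make short oligoadenylates that activate RNase L, which cuts viral and cellular RNA. Oas3 had 1.52, 0.873 and 1.87 CPM in knockout livers, from 32, 16 and 38 counts, against 2.71, 2.76 and 2.54 CPM in wild type livers, from 51, 59 and 44 counts. The wild type libraries lay close together and all stood above the knockout ones, at a log2 fold change of -0.90 ± 0.28 (SE; edgeR adjusted p = 0.182). Oas1a stood at 28, 16 and 39 counts in knockout and 55, 49 and 34 counts in wild type libraries, a log2 fold change of -0.79 ± 0.31 (SE). Oas1g stood at only 17, 8 and 7 counts in knockout and 10, 15 and 8 counts in wild type libraries, and its -0.10 ± 0.41 (SE) sets no direction at this depth. These neighbours share 57.6% of the 50-base words of Oas1a and 45.3% of those of Oas1g, and reads from shared stretches cannot be assigned to either.

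Oas2, another oligoadenylate synthase, averaged 5.18 ± 1.76 CPM in knockout and 6.13 ± 0.44 CPM in wild type livers (SD, n = 3 each), since knockout library 3, at 7.22 CPM, lay above every wild type library. The related Oasl1, known in mouse to restrain translation of Irf7, was at -0.56 ± 0.20 and Oasl2 at -0.62 ± 0.20 (log2 fold change ± SE), both with no overlap between groups. Oasl1 had 9.85, 10.75 and 10.4 CPM in knockout livers, against 19.9, 14.8 and 10.79 CPM in wild type livers, so wild type library 3 cleared the knockout range by a narrow margin. Eif2ak2, the kinase PKR that halts translation on double-stranded RNA, was at -0.21 ± 0.13, and Adar, which deaminates adenosines in double-stranded RNA, at -0.10 ± 0.12 (log2 fold change ± SE). Both overlapped between the genotypes. Adar shares 14.4% of its 50-base words with the overlapping gene Chrnb2.

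The 8 measured effectors of other kinds were all below 0, and in 4 of them the groups did not overlap. Rsad2, or viperin, makes a chain-terminating nucleotide that stops viral polymerases. It had 8.24, 8.68 and 9.13 CPM in knockout livers, against 19.4, 16.4 and 13.9 CPM in wild type livers. The knockout libraries were nearly alike and each lay well below the lowest wild type library, and its edgeR adjusted p of 0.0547 was the lowest of the 35 (log2 fold change -0.93 ± 0.14, SE). Its neighbour Cmpk2, a nucleotide kinase that supplies viperin's substrate, averaged 5.14 ± 0.54 CPM in knockout and 9.15 ± 1.86 CPM in wild type livers (SD, n = 3 each), with no overlap, at -0.83 ± 0.18 (SE; edgeR adjusted p = 0.0965).

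Bst2, or tetherin, holds budding virus at the cell surface. It had 138, 106 and 126 CPM in knockout livers, against 188, 187 and 173 CPM in wild type livers, a log2 fold change of -0.57 ± 0.11 (SE; edgeR adjusted p = 0.0801). Ly6e, a lipid-anchored surface protein that affects virus entry, had 283, 171 and 202 CPM in knockout livers, against 421, 446 and 350.5 CPM in wild type livers. Knockout library 1 was the nearest to wild type, and the log2 fold change was -0.89 ± 0.18 (SE; edgeR adjusted p = 0.0855). It was -1.12 (edgeR adjusted p = 0.0499) without knockout library 1 and -0.74 (edgeR adjusted p = 0.174) without knockout library 2. Leaving out any other library gave values between these.

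The remaining effectors of this role overlapped between the genotypes. Samd9l, a restriction factor of poxviruses, was at -0.25 ± 0.14, and Sp100, a component of PML nuclear bodies, at -0.25 ± 0.18 (log2 fold change ± SE). Mx1 and Mx2 belong to a family of dynamin-like GTPases that trap viral nucleoproteins. C57BL/6 mice carry a non-functional Mx1, and whether the Mx2 product works in them was not examined here. Mx1 averaged 1.86 ± 0.31 CPM in knockout and 2.19 ± 0.42 CPM in wild type livers, and Mx2 5.43 ± 0.55 CPM in knockout and 6.16 ± 0.56 CPM in wild type livers (SD, n = 3 each).

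In the ISG15 system all 3 genes were below 0, and 2 of them had groups that did not overlap. Isg15, the ubiquitin-like modifier, had 7.24, 9.55 and 6.24 CPM in knockout livers, against 15.7, 12.9 and 11.6 CPM in wild type livers. Usp18, which strips ISG15 from proteins and also restrains the interferon receptor, had 9.19, 11.95 and 10.9 CPM in knockout livers, against 16.1, 18.9 and 16.0 CPM in wild type livers. Neither overlapped between groups, with log2 fold changes of -0.80 ± 0.18 (SE; edgeR adjusted p = 0.108) for Isg15 and -0.67 ± 0.14 (SE; edgeR adjusted p = 0.083) for Usp18. Herc6, the main ISG15 ligase in mouse, was at -0.19 ± 0.11 (SE) with overlapping groups.

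The 4 genes of ADP-ribosylation had the smallest median shift of the roles, -0.17 on the log2 scale. Parp14, an ADP-ribosyltransferase of macrophages and other cells, had 39.2, 49.01 and 49.6 CPM in knockout livers, against 61.9, 66.7 and 58.4 CPM in wild type livers, and was the 1 gene of the 4 without overlap (log2 fold change -0.44 ± 0.11, SE; edgeR adjusted p = 0.134). Parp12, which acts on proteins of the secretory pathway and of stress granules, had 39.7, 59.3 and 42.9 CPM in knockout livers, against 58.2, 61.1 and 48.7 CPM in wild type livers. Knockout library 2 lay within the wild type range, and the log2 fold change was -0.25 ± 0.16 (SE; edgeR adjusted p = 0.511). Dtx3l, a ubiquitin ligase that works as a complex with Parp9, had 63.4, 84.8 and 74.8 CPM in knockout livers, against 76.0, 74.8 and 71.4 CPM in wild type livers. Parp9 was at -0.10 ± 0.09 and Dtx3l at 0.0048 ± 0.1119 (log2 fold change ± SE). These 2 genes overlap in the RefSeq annotation, and 7.71% of the 50-base words of Parp9 also occur in Dtx3l.

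Of the 4 other induced genes, Lgals3bp alone was without overlap. This secreted glycoprotein had 85.7, 79.2 and 70.8 CPM in knockout livers, against 128, 108 and 103 CPM in wild type livers, a log2 fold change of -0.52 ± 0.11 (SE; edgeR adjusted p = 0.0965). Xaf1, which antagonises an inhibitor of apoptosis, had 4.17, 5.35 and 5.60 CPM in knockout livers, against 5.58, 7.996 and 5.54 CPM in wild type livers. Wild type library 2 was high and the others overlapped, at -0.35 ± 0.20 (SE; edgeR adjusted p = 0.458). Ifi44 was at -0.32 ± 0.30 and Ifi35, a binding partner of Nmi, at -0.10 ± 0.11 (log2 fold change ± SE), both with overlap.

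Levels between members can be compared only per length. Merged exons join those of all annotated transcripts, and the transcripts expressed were not determined, so the order below depends on this choice of length. Before division by length, Ly6e averaged 219 CPM in knockout and 406 CPM in wild type livers. Bst2 averaged 123 CPM in knockout and 182 CPM in wild type livers. Per kilobase of merged exons in GENCODE M21, Bst2 was the most abundant at 136 CPM per kilobase in knockout and 202 in wild type livers, followed by Ly6e at 57.8 in knockout and 107 in wild type livers and Lgals3bp at 27.6 in knockout and 39.6 in wild type livers. At the other end, Oas3 stood at 0.201 CPM per kilobase in knockout and 0.378 in wild type livers, and Oas1g at 0.226 in knockout and 0.241 in wild type livers. The members summed to 1137, 1131 and 1148 CPM in knockout libraries, against 1589, 1598 and 1406 CPM in wild type libraries, sums in which Ly6e weighs most.

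The libraries differed within each genotype as well as between them. Taken over the 35 members, the median deviation from the wild type mean was -0.51, -0.34 and -0.33 on the log2 scale in knockout libraries 1 to 3, and 0.048, 0.064 and -0.13 in wild type libraries 1 to 3. Wild type library 3 was the lowest of its genotype in 30 of 35 members. Knockout library 1 was the lowest of all 6 libraries in 23 members, knockout library 2 in 7 and knockout library 3 in 5, and no wild type library was the lowest in any. Wild type library 1, the one with the lowest clock score, was highest of all 6 in 13 members, and wild type library 2 in 16.

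**Figure D4:**
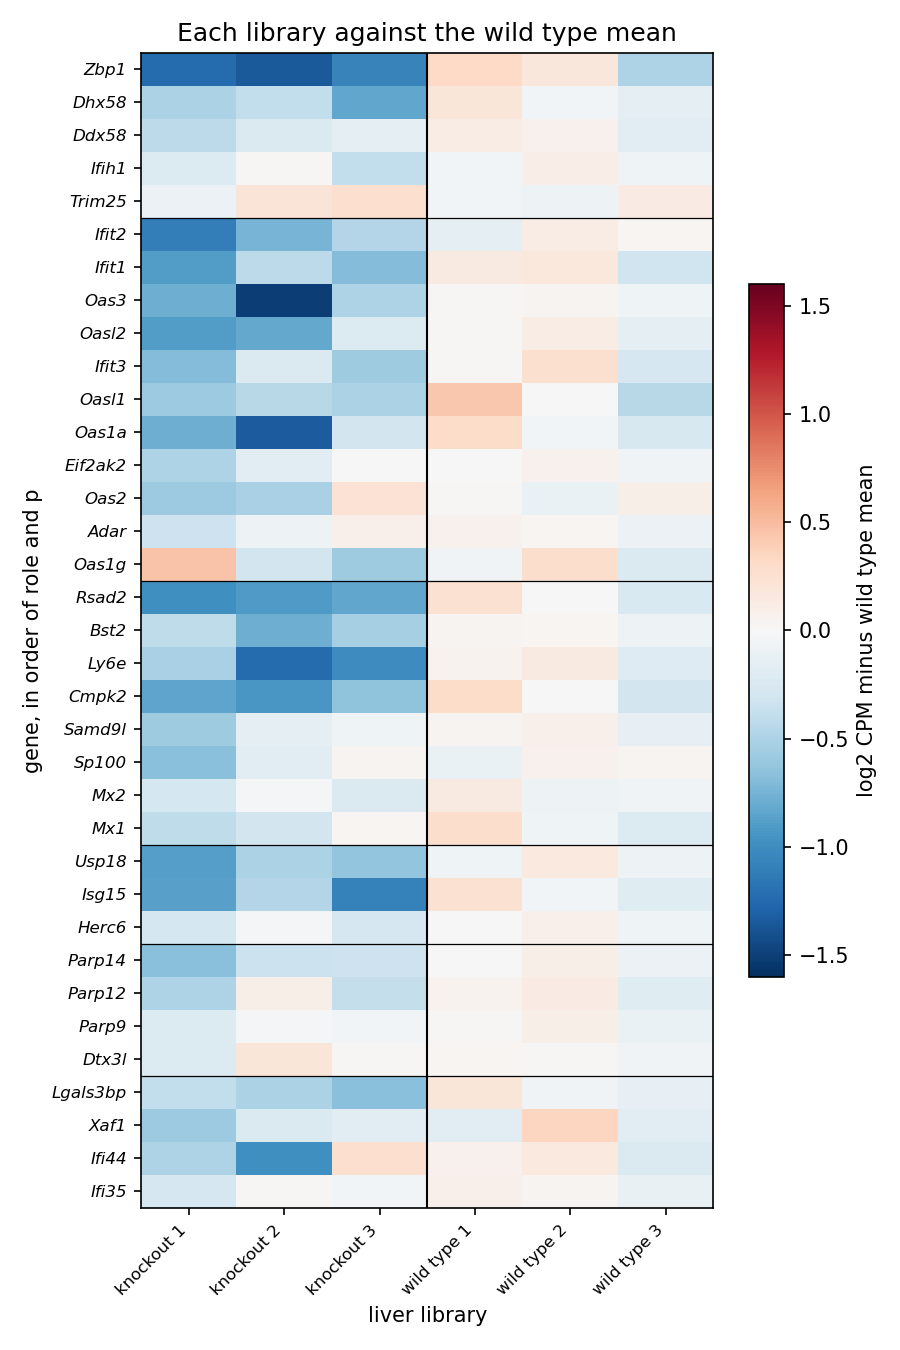
Log2 CPM of each member minus its wild type mean, for knockout libraries 1 to 3 (left) and wild type libraries 1 to 3 (right), with lines between roles. Blue is below the wild type mean, and knockout library 1 is the lowest of the 6 libraries in 23 of 35 rows.

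The genes that carry the interferon signal were read from the same fit. Of 22 signalling and sensing genes 20 were tested, 13 were below 0, 1 fell past the edgeR threshold over all genes, and 5 were lower and 0 higher at a raw p below 0.05. Over all tested genes 49.7% were below 0, 0.0878% were called lower, and 7.35% were lower and 8.10% higher at that raw p. The median log2 fold change of the signalling and sensing genes was -0.07. Irf7, the transcription factor that amplifies the type I response and is itself induced by it, was the gene called. It had 40.1, 29.2 and 36.8 CPM in knockout livers, against 60.3, 63.7 and 63.3 CPM in wild type livers (log2 fold change -0.82 ± 0.12, SE; edgeR adjusted p = 0.0489). That call was lost when any 1 library was left out, with adjusted p from 0.0544 to 0.195.

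Tlr7, an endosomal sensor of single-stranded RNA, was at -0.60 ± 0.23 (SE; edgeR adjusted p = 0.252). Tmem173, at -0.79 ± 0.30, and Irf8, at -0.39 ± 0.16 (log2 fold change ± SE), were also lower at a raw p below 0.05, with no overlap between groups. The receptor genes Ifnar1, at 0.00088 ± 0.09584, and Ifnar2, at -0.0023 ± 0.0971, lay close to 0, as did Jak1 at 0.03 ± 0.09, Tyk2 at -0.08 ± 0.11 and Stat2 at 0.04 ± 0.12 (log2 fold change ± SE). Irf9 was at -0.21 ± 0.12 (SE).

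The 7 interferon genes looked up had 0 or 1 count in any library. Ifnb1, Ifna1, Ifna2, Ifna4, Ifnl2 and Ifnl3 had 0 counts in all 6 libraries. For uniquely placed reads this allows up to 0.142 to 0.164 CPM in a knockout library (3 counts per library, counting error only). In a wild type library the limit is 0.140 to 0.173 CPM. Reads placed at several positions are not in the counts, so a gene with close copies could lie above these limits. Ifng had 0, 1 and 1 counts in knockout libraries and 1, 0 and 0 counts in wild type libraries.

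A second list held 37 interferon-stimulated genes that are not members. It was chosen with earlier results of these data known, and it shares 1 gene with the signalling list. Of its 37 tested genes 34 were below 0, 0 passed over all genes by edgeR or limma-voom, 18 were lower and 0 higher at a raw p below 0.05, and 8 passed with DESeq2. Over all tested genes 49.7% were below 0 and 7.35% were lower at that raw p, and DESeq2 called 1.73% lower of the genes it gave an adjusted p. The median log2 fold change of this second list was -0.37. The 3 with the lowest p were Apol9a, Psmb8 and Apol9b. Apol9a, an interferon-induced apolipoprotein L gene with the close copy Apol9b, had 14.4, 15.3 and 14.9 CPM in knockout livers, against 33.5, 38.6 and 22.2 CPM in wild type livers (log2 fold change -1.08 ± 0.19, SE; edgeR adjusted p = 0.062). Psmb8, a catalytic subunit of the immunoproteasome, was at -0.68 ± 0.14 (SE; edgeR adjusted p = 0.0823), and Apol9b at -0.59 ± 0.13 (SE; edgeR adjusted p = 0.101).

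**Figure D5:**
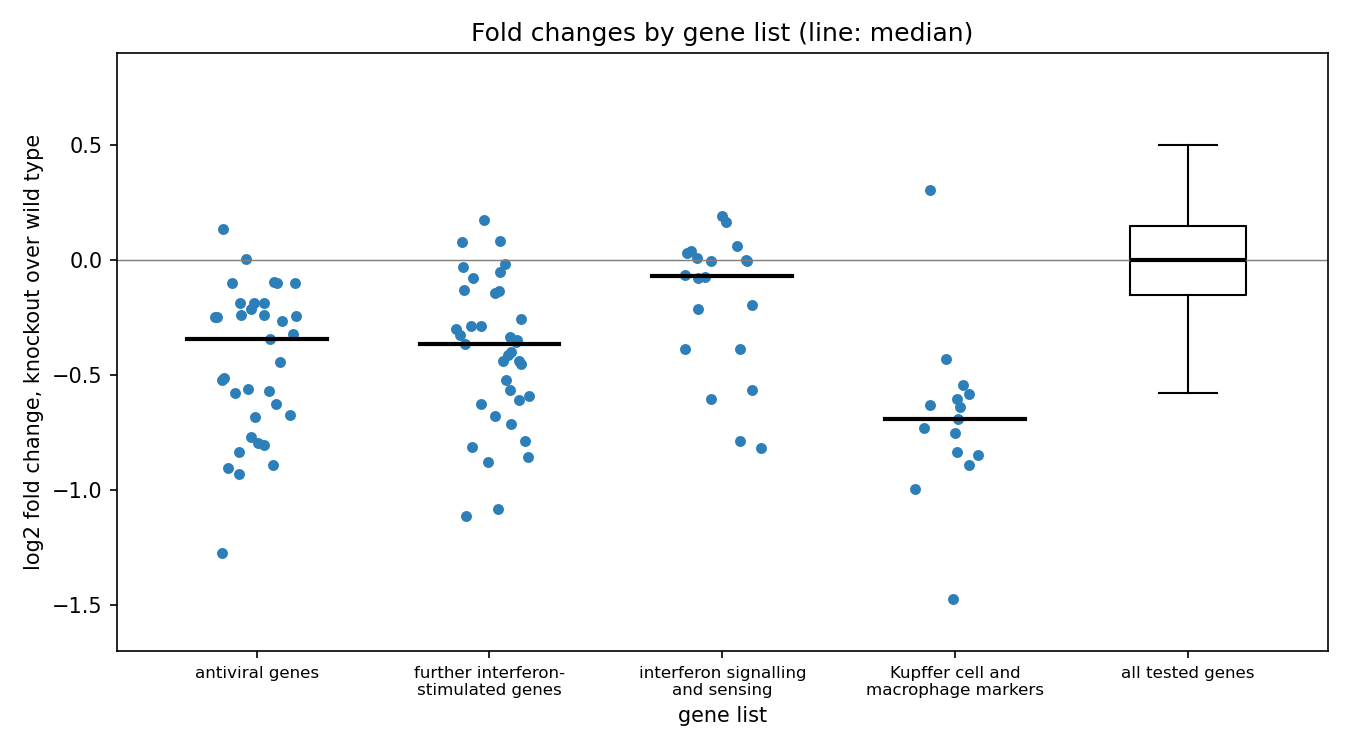
Log2 fold change, knockout over wild type, of the 35 antiviral genes, 37 further interferon-stimulated genes, 20 signalling and sensing genes and 15 Kupffer cell and macrophage markers (points, with medians as lines), beside all 12522 tested genes (box: quartiles, whiskers: 5th to 95th percentile). The medians are -0.35, -0.37, -0.07, -0.69 and 0.0013 in that order.

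Markers of several immune cell types were also lower in level. Of 15 Kupffer cell and macrophage markers 14 were below 0, at a median log2 fold change of -0.69. Of these markers 0 passed the edgeR threshold, 14 were lower at a raw p below 0.05 and 11 were lower by DESeq2's own adjusted p. Over all tested genes 7.35% were lower at that raw p, and DESeq2 called 1.73% lower of the genes it gave an adjusted p. The summed level of these markers was 427 to 679 CPM in knockout and 790 to 885 CPM in wild type livers, ranges that do not overlap, and no marker was at 0 in all libraries. The exception in direction was Cd163, at 0.31 ± 0.29 (SE). Summed T and NK cell markers ran from 4.03 to 5.73 CPM in knockout and from 7.27 to 8.51 CPM in wild type livers over 10 genes, and B cell markers from 1.87 to 2.67 CPM in knockout and from 3.55 to 4.47 CPM in wild type livers over 4 genes. Both sums stand on low counts. Of the T and NK cell markers 5 passed the filter and 1 was lower at a raw p below 0.05. Cd4, the highest of them, overlapped between groups. Of the B cell markers 4 passed and 2 were lower at that level. The 6 plasmacytoid dendritic cell markers summed to 17.8 to 19.3 CPM in knockout and 19.7 to 21.8 CPM in wild type livers, most of it Tcf4, which other cells also express. The 4 neutrophil markers summed to 0.491 to 0.8997 CPM in knockout and 0.561 to 2.07 CPM in wild type livers. The 6 endothelial markers summed to 299 to 376 CPM in knockout and 336 to 356 CPM in wild type livers, and the 7 hepatocyte markers to 88137 to 111887 CPM in knockout and 81323 to 100908 CPM in wild type livers. The part of these cell types in the result was not tested, and in whole liver fewer cells of a type and less RNA per cell cannot be told apart.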

How the data were processed

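Liver RNA libraries were made with an Illumina TruSeq RNA kit, per the labels' protocols. The authors deposited, for each library, unnormalised whole read counts by gene symbol. TopHat2 2.0.8b, CASAVA 1.8.2 and HTSeq, with builds hg19 and mm9, are listed without role or order per the submitters' processing notes. The sources used here do not give the annotation or the strand setting, so reads of overlapping genes may not be separated. The 5 closing rows name no gene and were left out. Of uniquely placed reads 9.65% to 12.5% were outside genes and 0.594% to 0.662% ambiguous. Alignments at several positions, 1.49 to 2.65 per gene count, are not in the counts, so genes with close copies can be counted low.

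The gene counts entered edgeR 4.0.16 (R 4.3.3): filterByExpr with a minimum count of 10, TMM scaling, a quasi-likelihood fit with genotype as its only term, and 2-sided tests adjusted by Benjamini-Hochberg over 12522 genes, called at adjusted p under 0.05. Standard errors come from the quasi-likelihood F statistic, and CPM from TMM-scaled library sizes. DESeq2 1.42.0, limma-voom (limma 3.58.1), other scalings and filters, a replicate block, a clock score covariate and each library left out were alternatives. The clock score is the mean log2 CPM (prior count 2) of Dbp, Tef, Per2, Per3, Nr1d2 and Gm129 minus that of Arntl, Npas2 and Clock. Replicate numbers did not pair the libraries. Replicates of a genotype differed by far more than sampling noise (chi-square per degree of freedom from 23.3 to 43.2). The tests were checked on simulated counts. The members and lists were chosen with earlier results of these data known. Within each role the 3 members with the lowest p (2 in roles of under 5 genes), and members with a fold change above 0, are given in every library. Each pathway list gives genes past the threshold and the 3 with the lowest p, of which 1 is not reported here, and genes named beyond that were chosen after their values were seen. Promoters and gene overlaps come from RefSeq on GRCm38.p6, and transcript words and exon lengths from GENCODE M21, a build other than those in the notes. Older symbols were matched for 7 list genes: Mb21d1, Ifi27, Phf11b, Phf11d, Ifnl2, Ifnl3 and Adgre1.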

Additional observations from a re-analysis of the deposited data

How the results depend on the processing

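Over 12522 genes edgeR called 27 genes and 0 antiviral genes. With no filter the calls were 133 genes, 4 antiviral genes (Bst2, Ly6e, Rsad2 and Zbp1) and 2 of the further interferon list. With DESeq2 they were 438 genes, 12 antiviral genes, 8 of the further list and 2 of the signalling list. Irf7, the 1 signalling gene called, was lost, leaving 0 of that list, with a filter of 1 CPM in 3 libraries, with the replicate block and with the clock score, at log2 fold changes of -0.82, -0.83 and -0.82 in these fits. The last 2 fits each called 1 gene in all. With the clock score 8 antiviral genes, in place of 18, were lower at an unadjusted p under 0.05, beside 3.09% of all tested genes in place of 7.35%. Dtx3l was below 0 at -0.038 with upper-quartile scaling, -0.040 with total counts, -0.0048 with limma-voom, -0.0040 with the replicate block and -0.014 with the clock score. The median log2 fold change over all tested genes was also below 0 with these 2 scalings. It was -0.042 with upper-quartile scaling and -0.046 with total counts, against 0.0013 in the main fit. So the sign of Dtx3l under them is not particular to that gene. The cause of the other shifts between fits was not tested.

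With 1 library left out, the calls ranged from 3 to 36 genes, from 0 to 2 antiviral genes, from 0 to 1 of the further list and stood at 0 of the signalling list. The median of the antiviral genes ranged from -0.46 to -0.30, and Dtx3l from -0.10 to 0.11. Antiviral genes with every knockout value below every wild type value numbered 16 to 24, and those with every knockout value above numbered 0 to 1. With no library left out, 10.1% of all tested genes lay wholly below. With fewer libraries, groups separate more easily, and the share over all tested genes was not taken in those fits. A higher count with a library left out is therefore not a stronger result. Members lower at an unadjusted p under 0.05 numbered 14 to 20, beside 4.83% to 8.19% of all tested genes. Deviations from the genotype mean correlated at -0.08, -0.10 and -0.04 between same-numbered libraries, and at -0.05 to 0.12 between the others. These values show no sign of pairing by number but cannot exclude it. The replicate block is given only as an alternative fit. At 7 to 17 counts per library, the depth of Oas1g sets no direction.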
